A study of Mus musculus with 15 samples.

Results

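Messenger RNAs of skeletal muscle were looked for in plasma extracellular vesicles (EVs), the small membrane particles that cells release into the blood. The gene set held 40 mouse genes, chosen by name with earlier results of these data known, out of 43472 gene symbols counted in every library. They encode the contractile apparatus of the muscle fibre, its enzymes and calcium handling proteins, the dystrophin complex with 3 sarcoglycans, and the secreted factor myostatin. At least 1 read was counted in at least 1 of 15 libraries for 33 of the 40 genes. The libraries came from 3 conditions, with 3 from WT mice (C57BL/6, called black 6 in the labels), 6 from dystrophic mice labelled Sgcb null, and 6 from hypertrophic mice. The labels name the hypertrophic genotype MAGIC F1, while the methods of the study name Mstn-null mice for the RNA-seq, so that group is called only by its condition here. All mice were 3 to 6 months old, the labels name no treatment beyond the condition, and each library held EVs of 2 to 3 mice whose blood was drawn from the heart. A library is therefore a pool, and the spread between libraries is not the spread between single animals.

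The sarcomere is the repeating unit of the muscle fibre, in which myosin motors of the thick filament pull on actin of the thin filament. Troponin and tropomyosin on the thin filament open this interaction when the sarcoplasmic reticulum releases calcium, and fast and slow fibres use different genes for many of these parts. The dystrophin complex, to which the sarcoglycans belong, joins the cytoskeleton of the fibre to the matrix around it, and loss of β-sarcoglycan causes a limb-girdle muscular dystrophy.

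The depth, as reads counted on genes, varied from 27227 (WT replicate 1) to 32563362 (dystrophic replicate 6), and its median was 601506 for WT, 2419660 for dystrophic and 3513267 for hypertrophic libraries. Levels are given as CPM, the reads of a gene scaled to 1000000 reads on all genes. Where a gene had 0 reads, its true count may be as high as 3, equal to 110 CPM in the shallowest and 0.0921 CPM in the deepest library, and these limits cover counting error only, because the RNA was amplified before sequencing. For muscle genes, WT replicate 1 and dystrophic replicate 4 stood apart: neither held any of the 40, the former with 27227 reads and the latter with 1608699. Platelet genes (7 of 7 read in at least 1 library, 9575 to 32962.5 CPM summed per library) and red cell genes (6 of 6, 20042 to 127283 CPM) were found in all 15 libraries, these 2 included. The numbers of 6 libraries (dystrophic replicates 4, 5 and 6, hypertrophic replicates 1, 2 and 3) did not match between sample title and count table and were crossed between these conditions, so the main counts and tests by condition were repeated with their conditions exchanged.

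Sgcb, which encodes β-sarcoglycan and is the gene inactivated in the dystrophic mice (ENSMUSG00000029156.11, mm10 chromosome 5, 73632749 to 73647790), had 0 reads in all 6 dystrophic-derived and all 3 WT-derived libraries. Its only reads, 695 of them, lay in hypertrophic replicate 3 and gave 365 CPM, with a 95% Wilson interval of 338 to 393. A count of 0 was thus no mark of the dystrophic-derived libraries. Hypertrophic replicate 3 is among the 6 libraries with crossed numbers, and with conditions exchanged these Sgcb reads would lie in a dystrophic-derived library. Mstn, which encodes myostatin, the secreted inhibitor of muscle growth (ENSMUSG00000026100.6, chromosome 1, 53061640 to 53068079), had 0 reads in all 15 libraries, which over the pooled reads allows up to 0.0420 CPM. Counts of 0 for either gene could therefore not check the genotype labels. Whether the Sgcb reads of hypertrophic replicate 3 bear on the label of that library was not tested.

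At least 1 read of the gene set was present in 13 of the 15 plasma EV libraries, for between 1 and 17 of the 40 genes. In hypertrophic replicate 5 it was 1 read of Eno3, which does not separate that library from 0. Hypertrophic replicate 3 held 695 reads of Sgcb, a gene also known from other tissues, and 1 read each of Sgca and Neb. No member was read in every library. Car3 was read in 10 libraries, Acta1 and Tpm2 in 8 each, Utrn in 7 and Eno3 in 6, while 9 members were read in a single library and 7 were read in none. The 40 genes had a read in 104 of the 600 gene and library pairs, or 17.3%, against 16.5% of the pairs for 20783 protein-coding symbols, so the share of pairs was close to that of coding genes in general. Per gene the members were less often empty, with 82.5% of them read in at least 1 library against 53.0% of the protein-coding symbols. Of those read anywhere, 19.6% of the protein-coding symbols and 9 of 33 members were read in 1 library only. How many vesicles came from muscle and how many muscle mRNAs each vesicle held cannot be told apart in these data.

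**Figure D1:**
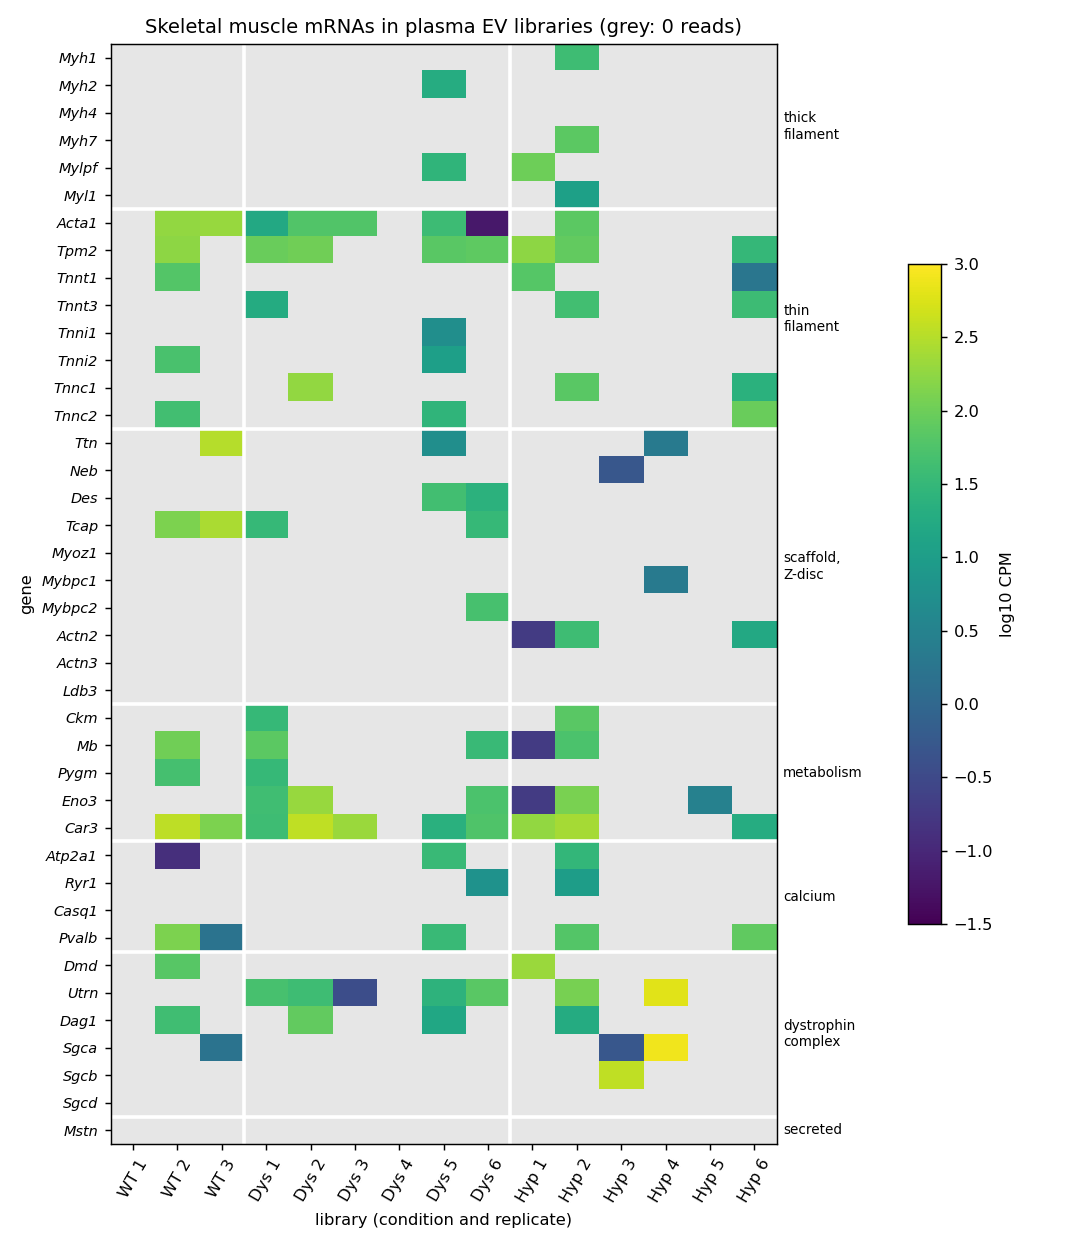
Levels of the 40 muscle genes (vertical axis, grouped by role) in the 15 libraries (horizontal axis), as colour on a log10 CPM scale, with grey for 0 reads. Most cells are grey, WT replicate 1 and dystrophic replicate 4 are grey throughout, and no gene is coloured in every library.

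The myosin genes of the thick filament were the most rarely read of the contractile genes, with 6 of 90 pairs, or 6.67%. Myh1, the fast IIx heavy chain, had 232 reads in hypertrophic replicate 2, or 39.99 CPM, and 0 elsewhere. Myh7, the slow heavy chain that heart muscle also uses, had 431 reads in that library, or 74.3 CPM, and 0 elsewhere. Myh2, the fast IIa heavy chain, had 56 reads in dystrophic replicate 5, or 19.4 CPM, and Myh4, the fast IIb chain that dominates many mouse limb muscles, had none in any library. Between 18.9% and 32.1% of the 50-base windows in these 4 transcripts are shared with other genes, mostly other myosins, so reads may have been lost to or split between paralogs. Of the light chains, Mylpf, the fast regulatory chain, shares no window and had 79 reads in dystrophic replicate 5 (27.3 CPM) and 528 in hypertrophic replicate 1 (103 CPM). Myl1, the fast essential chain, had 66 reads in hypertrophic replicate 2 (11.4 CPM). No WT-derived library held a thick filament gene.

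The thin filament was the best covered contractile structure, with all 8 genes read somewhere and 31 of 120 pairs, or 25.8%. Acta1 encodes skeletal α-actin (ENSMUSG00000031972.5, mm10 chromosome 8, 123891769 to 123894751, minus strand). Because actins are among the most similar proteins known, the same 50-base coding stretch, the length of a read, is shown for Acta1, for the smooth muscle actin Acta2, for the heart actin Actc1 and for the cytoplasmic actin Actb, to show that a read can tell them apart. Capitals in Acta1 mark bases that differ in at least 1 of the other 3 genes, and capitals in the others mark bases that differ from Acta1; all are on the coding strand, 5′ to 3′, from mm10.
Acta1 (chr8:123893591-123893640): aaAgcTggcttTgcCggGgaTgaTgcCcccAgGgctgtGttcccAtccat
Acta2 (chr19:34252447-34252496): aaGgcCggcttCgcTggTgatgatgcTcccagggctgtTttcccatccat
Actc1 (chr2:114051925-114051974): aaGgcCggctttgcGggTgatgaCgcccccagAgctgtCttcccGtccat
Actb (chr5:142905586-142905635): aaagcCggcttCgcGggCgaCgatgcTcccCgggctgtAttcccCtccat
The stretch differs from Acta1 at 7 bases in Acta2, 8 in Actc1 and 9 in Actb, and coding sequences were 85.4%, 86.3% and 85.0% identical to that of Acta1. Among 1076 such windows along the coding sequences, none was identical between Acta1 and Acta2, with a median of 7 differences and a minimum of 2. Over the whole Acta1 transcript, 2.22% of windows occur in another gene, so the Acta1 counts rest on sequence that separates it from its relatives.

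Acta1 reached 1445 reads in WT replicate 2 (187 CPM) and 122 reads in WT replicate 3 (203 CPM), and had 0 in WT replicate 1, the shallowest library. In the dystrophic-derived libraries 1 to 6, Acta1 had 19, 131, 161, 0, 111 and 2 reads, or 16.2, 60.7, 60.1, 0, 38.4 and 0.0614 CPM. Only hypertrophic replicate 2 held it among the hypertrophic-derived libraries, with 433 reads, or 74.6 CPM. The 2 WT-derived libraries with reads thus lay above all others. WT replicate 1 was at 0, but its depth allows up to 110 CPM, above every value of the other conditions. Whether the ranges overlapped can therefore not be told. Acta2 differed from Acta1 in where it was read. It was highest in dystrophic replicate 6, with 7052 reads where Acta1 had 2, and it was at 0 in WT replicates 2 and 3, where Acta1 was highest. Actc1 was read in WT replicate 2 (500 reads), dystrophic replicate 4 (8 reads) and hypertrophic replicate 2 (383 reads), and Actb in all 15 libraries.

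Tpm2, β-tropomyosin, which lies along actin in skeletal and smooth muscle (ENSMUSG00000028464.16, chromosome 4, 43514711 to 43523765), was the most evenly spread contractile gene. It had 1305 reads in WT replicate 2 (169 CPM) and 0 in the other WT-derived libraries. In the dystrophic-derived libraries it ranged from 0 to 104 CPM with a median of 72.5, and replicates 1, 2, 5 and 6 lay between 69.9 and 104 CPM although their depths ran from 1170610 to 32563362 reads. In the hypertrophic-derived libraries it ranged from 0 to 169 CPM with a median of 15.4, and was read in replicates 1, 2 and 6. All 3 conditions therefore overlapped.

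The troponins, which make the thin filament sensitive to calcium, were read in 1 to 3 libraries each, and no library held all 3 subunits of the fast or of the slow set. Fast troponin genes had a read in 8 pairs: Tnni2, the fast inhibitory subunit, in WT replicate 2 (50.5 CPM) and dystrophic replicate 5 (11.1 CPM), Tnnt3, the fast tropomyosin-binding subunit, in dystrophic replicate 1 (18.8 CPM) and hypertrophic replicates 2 and 6 (42.6 and 38.4 CPM), and Tnnc2, the fast calcium-binding subunit, in WT replicate 2 (43.8 CPM), dystrophic replicate 5 (27.3 CPM) and hypertrophic replicate 6 (94.2 CPM). The Tnnc2 values are uncertain, because 55.0% of its windows lie where Ube2c overlaps it and the strand setting of the counting is not given in the sources used here. WT replicate 2 and dystrophic replicate 5 held Tnni2 and Tnnc2, and hypertrophic replicate 6 held Tnnt3 and Tnnc2. Of the slow troponins, Tnnt1 had 490 reads in WT replicate 2 (63.3 CPM), 336 in hypertrophic replicate 1 (65.6 CPM) and 12 in hypertrophic replicate 6 (1.86 CPM). Tnni1, the slow inhibitory subunit, had 15 reads in dystrophic replicate 5 (5.19 CPM). Tnnc1, the calcium-binding subunit of slow fibres and of the heart, had 396 reads in dystrophic replicate 2 (183 CPM), 407 in hypertrophic replicate 2 (70.2 CPM) and 155 in hypertrophic replicate 6 (24.0 CPM). Each of these genes was at 0 in all libraries not named.

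Across the set, 14 members were classed as fast fibre genes and 6 as slow fibre genes. Tpm2 was counted as slow, although it is not limited to slow fibres. Fast genes had a read in 22 of 210 pairs, or 10.5%, and slow genes in 17 of 90, or 18.9%. Tpm2 alone gave 8 of these 17 pairs, so the slow share rests largely on how it is classed. The higher slow share came with genes that other tissues use too, since Tpm2, Tnnc1 and Myh7 had 12 of 45 pairs (26.7%), while the slow genes mostly limited to skeletal muscle, Tnnt1, Tnni1 and Mybpc1, had 5 of 45 (11.1%). The same split held over the full set, where 23 members mainly of skeletal muscle had 43 of 345 pairs (12.5%) and 17 members also known from other tissues had 61 of 255 (23.9%).

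Among 10 genes of the scaffold, the Z-disc and the intermediate filaments, 7 were read, in 15 of 150 pairs, or 10%. Tcap, or telethonin, a small protein that caps titin at the Z-disc, was the most frequent. It had 999 reads in WT replicate 2 (129 CPM), 163 in WT replicate 3 (271 CPM), 39 in dystrophic replicate 1 (33.3 CPM) and 1069 in dystrophic replicate 6 (32.8 CPM), and 0 in all 6 hypertrophic-derived libraries, where a count of 0 allows between 0.464 and 9.13 CPM. Tcap was the only member seen in 2 WT-derived and 2 dystrophic-derived libraries and in no hypertrophic-derived one. Ttn, titin, the giant spring of the sarcomere with 116.8 kb of exon, had 191 reads in WT replicate 3, or 318 CPM (95% Wilson interval 276 to 366), 15 in dystrophic replicate 5 and 1 in hypertrophic replicate 4. Corrected for length, the largest of these was 2.72 reads per kb of exon and 1000000 reads, against 132 for Acta1 in the same library.

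Desmin, Des, the intermediate filament of muscle, had 128 reads in dystrophic replicate 5 (44.3 CPM) and 811 in dystrophic replicate 6 (24.9 CPM). Actn2, the Z-disc α-actinin, was read in hypertrophic replicates 2 (228 reads, 39.3 CPM), 6 (107 reads, 16.6 CPM) and 1 (1 read). Mybpc2, the fast myosin-binding protein C, had 1604 reads in dystrophic replicate 6 (49.3 CPM) and none elsewhere. Its slow relative Mybpc1 had 1 read in hypertrophic replicate 4, and Neb, nebulin, the ruler of the thin filament with 26.6 kb of exon, had 1 read in hypertrophic replicate 3. A single read does not separate these genes from a count of 0, which allows up to 3. Actn3, the fast fibre α-actinin, and the Z-disc genes Myoz1 and Ldb3 were at 0 in every library.

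Enzymes and the oxygen carrier were the best represented role, with all 5 genes read and 25 of 75 pairs, or 33.3%. Car3, carbonic anhydrase 3, abundant in slow muscle and also in fat and liver (ENSMUSG00000027559.5, chromosome 3, 14863512 to 14872523), was the most widespread of the 40 genes and shares no window with another gene. In WT-derived libraries it stood at 0, 361 and 128 CPM, from 0, 2790 and 77 reads. Dystrophic-derived libraries 1 to 6 held 39.3, 377, 209, 0, 23.2 and 56.6 CPM, with a mean of 117 ± 147 (SD, n = 6), and hypertrophic-derived libraries 1 to 6 held 184, 248, 0, 0, 0 and 19.3 CPM, with a mean of 75.3 ± 111 (SD, n = 6). The SD exceeded the mean in each condition, the WT-derived one included (163 ± 183, n = 3), and the ranges overlapped. Car3 made up 77.6% of all member reads in dystrophic replicate 3 and was the leading member in 4 libraries.

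Eno3, the muscle enolase of glycolysis, was at 0 in the WT-derived libraries. It had 49, 442 and 1708 reads in dystrophic replicates 1, 2 and 6 (41.9, 205 and 52.5 CPM), 727 in hypertrophic replicate 2 (125 CPM), and 1 read each in hypertrophic replicates 1 and 5. Myoglobin, Mb, which stores oxygen in oxidative and heart muscle, was read in WT replicate 2 (835 reads, 108 CPM), dystrophic replicates 1 and 6 (74.3 and 35.5 CPM), hypertrophic replicate 2 (53.3 CPM) and hypertrophic replicate 1 (1 read), and 34.0% of its windows are shared with an overlapping transcript. Ckm, the muscle creatine kinase whose protein is measured in blood as a sign of muscle damage, had 39 reads in dystrophic replicate 1 (33.3 CPM) and 410 in hypertrophic replicate 2 (70.7 CPM), and 0 in 5 of 6 dystrophic-derived libraries. Pygm, the muscle glycogen phosphorylase, had 365 reads in WT replicate 2 (47.2 CPM) and 39 in dystrophic replicate 1 (33.3 CPM).

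Calcium handling genes had a read in 10 of 60 pairs, or 16.7%, and 3 of 4 were found. Pvalb, parvalbumin, which buffers calcium in fast fibres, had 999 reads in WT replicate 2 (129 CPM), 1 in WT replicate 3, 103 in dystrophic replicate 5 (35.6 CPM), 362 in hypertrophic replicate 2 (62.4 CPM) and 522 in hypertrophic replicate 6 (80.8 CPM). Atp2a1, the fast fibre calcium pump SERCA1, had 101 reads in dystrophic replicate 5 (35.0 CPM), 178 in hypertrophic replicate 2 (30.7 CPM) and 1 in WT replicate 2. Ryr1, the calcium release channel, had 203 reads in dystrophic replicate 6 (6.23 CPM) and 58 in hypertrophic replicate 2 (9.999 CPM), and Casq1, which stores calcium in the reticulum, had none. In dystrophic replicate 5 and hypertrophic replicate 2, Pvalb and Atp2a1 were read together with more than 1 read each.

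The dystrophin complex had 17 of 90 pairs, or 18.9%. The 2 highest CPM of any member were those of Sgca and Utrn in this complex, both in hypertrophic replicate 4. That library was shallow, with 451013 reads on genes, and CPM are not corrected for length. Corrected for exon length as for Ttn above, Sgca was still highest, at 456, while Utrn, with 17.1 kb of exon, was at 36.3. Tcap in WT replicate 3 (286) and Tnnc1 in dystrophic replicate 2 (176) were among the values above that of Utrn. Sgca, α-sarcoglycan (ENSMUSG00000001508.15, chromosome 11, 94962791 to 94976327), stood at 792 CPM in hypertrophic replicate 4, from 357 reads and with a 95% Wilson interval of 714 to 878, and had 1 read each in WT replicate 3 and hypertrophic replicate 3, and 0 elsewhere. Its partner Sgcb was at 0 in hypertrophic replicate 4, and where Sgcb had its 695 reads Sgca had 1. Sgcd, δ-sarcoglycan, was at 0 in all 15 libraries, so no library held more than 1 sarcoglycan beyond a single read. Dmd, dystrophin (ENSMUSG00000045103.17, chromosome X, 82948870 to 85206141), had 526 reads in WT replicate 2 (68.0 CPM) and 1097 in hypertrophic replicate 1 (214 CPM), and none in the dystrophic-derived libraries or the remaining ones. Hypertrophic replicate 1 is also among the libraries with crossed numbers. Dag1, dystroglycan, the matrix receptor at the centre of the complex in many tissues, was read in WT replicate 2 (41.5 CPM), dystrophic replicates 2 and 5 (81.5 and 14.9 CPM) and hypertrophic replicate 2 (18.6 CPM).

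Utrn, utrophin, the relative of dystrophin made in most tissues (ENSMUSG00000019820.11, chromosome 10, 12382188 to 12869365), was at 0 in all 3 WT-derived libraries, where a count of 0 allows 110, 0.388 and 4.99 CPM. In the dystrophic-derived libraries 1 to 6 it had 57, 86, 1, 0, 73 and 2269 reads, or 48.7, 39.8, 0.373, 0, 25.3 and 69.7 CPM. Hypertrophic replicate 2 had 697 reads (120.2 CPM) and hypertrophic replicate 4 had 280 (621 CPM), with 0 in the other 4 of that condition. Dystrophic-derived and hypertrophic-derived libraries overlapped, and with the conditions of the 6 libraries exchanged, the Utrn reads of dystrophic replicates 5 and 6 and of hypertrophic replicate 2 would change sides.

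**Figure D2:**
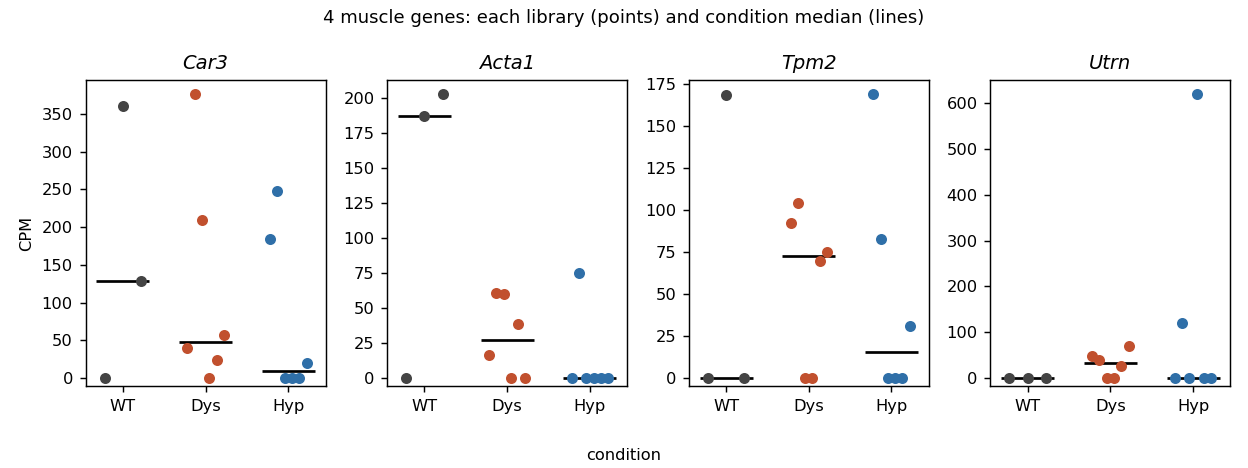
CPM of Car3, Acta1, Tpm2 and Utrn (vertical axes, linear, a scale for each gene) in each library (points) of WT, dystrophic and hypertrophic mice, with the median of each condition as a line. The points of the 3 conditions overlap for Car3 and Tpm2. For Acta1 the overlap rests on WT replicate 1 at 0, where the depth allows up to 110 CPM. Utrn is at 0 in all 3 WT-derived libraries.

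Further genes of the dystrophin complex and of the sarcomere, in lists that do not overlap the 40 genes, were also read in some libraries only. Of 17 further genes of the dystrophin complex and its glycosylation, 9 were read, in 6.67% of pairs. Among them Dtnb, a dystrobrevin, was read in 3 libraries. Of 22 further sarcomere and fibre genes, 12 were read, in 20.6% of pairs, and the most frequent were the tropomyosins Tpm3 (13 libraries) and Tpm1 (12 libraries), which many cells make, and the heart troponin Tnnt2 (12 libraries, but with more than 3 reads in only 5). Of 7 regulators of muscle cell identity, Pax7, Myf5, Myod1, Myog and Myf6 were at 0 in all libraries, while Mef2c, which blood cells also express, was read in 6 libraries.

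Libraries differed in how many muscle genes they held, and depth alone did not order them. In WT replicates 1 to 3, 0, 13 and 6 members were read, in dystrophic replicates 1 to 6, 10, 7, 3, 0, 14 and 10, and in hypertrophic replicates 1 to 6, 8, 17, 3, 4, 1 and 8. The deepest library, dystrophic replicate 6, held fewer members than hypertrophic replicate 2, which had 5800739 reads. At counts of at least 50, 79 of the 104 pairs with a read were well above the limit, and 13 pairs had 1 to 3 reads. The median count where a member was read was 195, against 236 over all symbols.

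**Figure D3:**
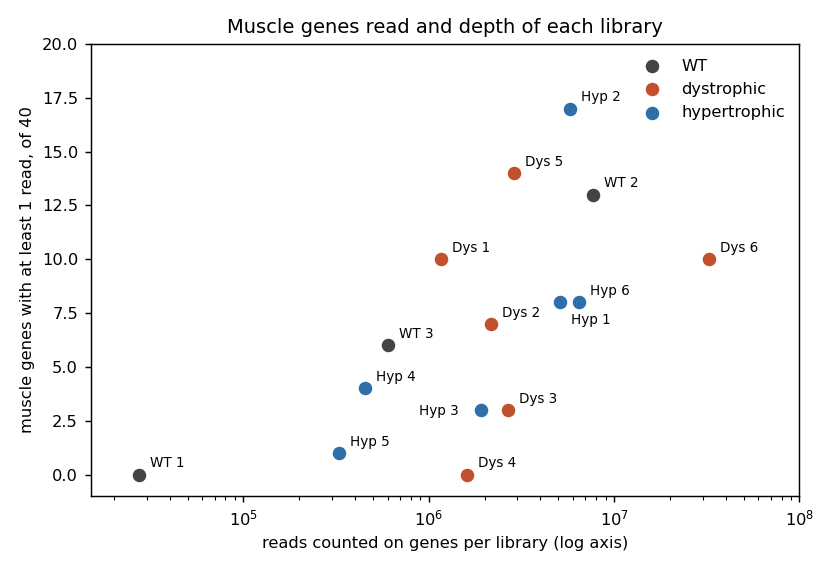
Number of the 40 muscle genes with at least 1 read (vertical axis) against reads counted on genes (horizontal axis, log scale), 1 point per library, coloured by condition. Hypertrophic replicate 2 holds the most, 17 genes, while dystrophic replicate 6, the deepest, holds 10 and dystrophic replicate 4 holds 0.

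A member was often missing where the other libraries of its condition gave reason to expect it. For 187 pairs, the pooled reads of the other libraries of the same condition predicted at least 10 reads at the depth of that library. Deeper libraries weighed more in this pool. Of the 187 pairs, 128, or 68.4%, held 0. The same share was 55.9% over all symbols, 19.4% for the counterparts of muscle genes used by other cells, 12.7% for platelet genes and 4.60% for red cell genes. Muscle genes therefore shared the all-or-none pattern of the wider transcriptome, and the abundant genes of blood cells showed it less often. Where members were read, a few of them held most of the reads. Sgcb alone held 99.7% of the member reads in hypertrophic replicate 3, Sgca 55.9% in hypertrophic replicate 4, Ttn 34.4% in WT replicate 3, Tnnc2 30.8% in hypertrophic replicate 6 and Dmd 29.1% in hypertrophic replicate 1.

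Many muscle genes have a close relative that most cells use for the same task, and for the structural genes these relatives were the more abundant in each library where the muscle form was read. Levels were compared per length here, as reads per kb of exon and 1000000 reads. Acta1 was read in 8 libraries and reached 132, while Actb and Actg1, the cytoplasmic actins, were read in all 15, with a sum between 874 and 2135. Where both were read, Acta1 stood at 0.00247% to 9.29% of that sum, with a median of 2.33%. Tpm2 stood at 1.28% to 9.39% of Tpm4, the tropomyosin of platelets and other cells, with a median of 3.86% over 8 libraries. For the light chains Mylpf and Myl1, summed, the range was 0.658% to 15.5% of Myl6 and Myl12a in 3 libraries, and for the skeletal heavy chains it was 18.1% and 53.8% of Myh9 in 2 libraries.

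The enzymes did not always follow this order. Eno3 was above Eno1, the enolase of most tissues, in 3 of the 6 libraries that held it, most clearly in dystrophic replicate 2, with 118 against 4.65 reads per kb of exon and 1000000 reads. In hypertrophic replicate 2 it had 72.1 against 15.9, and in dystrophic replicate 1 it had 24.1 against 18.6. Shared windows were counted for the 40 members only. How many reads Eno1 and the other relatives lost to similar genes is therefore not known. Pygm was at 10.4 in dystrophic replicate 1, where its brain form relative Pygb was at 9.59, and below Pygb (17.6) in WT replicate 2. Ckb, the relative of Ckm, was not compared per length. It was read in 3 libraries, with the highest CPM in WT replicate 3 (324), where Ckm was at 0. No hypertrophic-derived library held Ckb, while hypertrophic replicate 2 held 410 reads of Ckm. The muscle forms Atp2a1 and Actn2 with Actn3 stayed below Atp2a3 and below Actn1 with Actn4 in every library that held them. Atp2a2, another counterpart of Atp2a1, was not compared per length. It reached at most 7.002 CPM in dystrophic-derived libraries, below the 35.0 CPM of Atp2a1 in dystrophic replicate 5. In hypertrophic replicate 2 Atp2a2 had more reads, 260 against 178 of Atp2a1. The order seen against Atp2a3 thus did not hold in every library against Atp2a2.

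**Figure D4:**
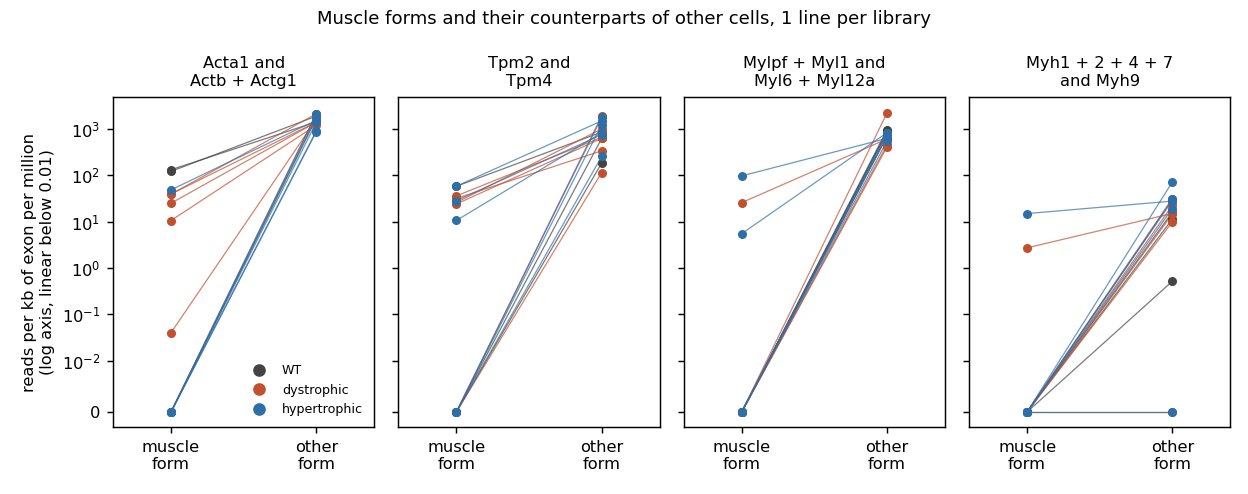
Reads per kb of exon and 1000000 reads (vertical axis, log scale, linear below 0.01) of 4 muscle forms and of their counterparts in other cells, with 1 line per library. In every library the cytoplasmic actins, Tpm4 and the light chains Myl6 and Myl12a lie above the muscle form, and most muscle points lie at 0.

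Genes of other tissues were read alongside the muscle genes, and their part in the values above was not tested. Blood was drawn from the heart, and 5 of 7 heart genes were read, in 10 libraries, with sums of 0 to 259 CPM in WT, 0 to 343 in dystrophic and 0 to 694 in hypertrophic libraries. Nppb, a natriuretic peptide gene, and Sln, sarcolipin, were at 0, and the highest sum came from Myl7, an atrial light chain, in hypertrophic replicate 4, where Sgca and Utrn were highest too. Myh6, the main myosin of the adult mouse heart, was read in 2 libraries, hypertrophic replicate 2 with 441 reads among them, and Myh6 shares windows with Myh7, read in the same library. The heart sums leave out Actc1 and the heart genes in the list of further sarcomere genes, such as the troponins Tnnt2 and Tnni3. Tnni3, chosen after its values were seen, was highest in dystrophic replicate 3, with 935 reads (349 CPM). All 40 members together had 722 reads there. For smooth muscle, 5 of 6 genes were read, in 9 libraries, with sums of 0 to 123 CPM in WT, 0 to 578 in dystrophic and 0 to 356 in hypertrophic libraries, and Cnn1, calponin, was at 0. The sums of the 40 members in the same libraries were 0 to 1396, 0 to 1051 and 3.04 to 1417 CPM.

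Whether muscle mRNA in EVs differed with the state of the muscle is the question of the comparison between conditions. By presence, 15 members were read in WT, 23 in dystrophic and 26 in hypertrophic libraries, beside 6001, 11880 and 8958 of all symbols, with 9 in all 3 conditions (Acta1, Atp2a1, Car3, Dag1, Mb, Pvalb, Tnnc2, Tpm2 and Ttn). Des, Mybpc2, Myh2 and Tnni1 were read only in dystrophic-derived libraries, each in 1 or 2 of them, and Actn2, Mybpc1, Myh1, Myh7, Myl1, Neb and Sgcb only in hypertrophic-derived ones. These lists rest on how the 6 libraries with crossed numbers are labelled: with conditions exchanged, all of the first 4 would be read only in hypertrophic libraries, and Myh1, Myh7, Myl1, Neb and Sgcb only in dystrophic ones. No member was read in WT-derived libraries alone. The same split by condition was not made for all symbols, so these lists are no result about muscle genes as a set. WT had 3 libraries against 6 and a lower median depth, and these differences cannot be told apart from the condition. Single libraries decided the counts: without WT replicate 2 the WT count was 6, and without dystrophic replicate 5 the dystrophic count was 15. With the conditions of the 6 libraries exchanged, 25 members were read in dystrophic and 25 in hypertrophic libraries. At the depth of the shallowest library, 11.5, 15.3 and 18.9 members would be read in the 3 conditions. The summed level of the members had a median of 923 CPM in WT, 392 in dystrophic and 551 in hypertrophic libraries, and the ranges overlapped. With the conditions of the 6 libraries exchanged, the dystrophic median was 584 and the hypertrophic median 344, so the order of these 2 conditions depended on the labels.

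By level, no muscle gene passed the test between any pair of conditions. With edgeR's quasi-likelihood test on 6887 genes that passed its filter, the biological coefficient of variation was 3.04, and 12 of the 40 members were tested (Acta1, Car3, Dag1, Eno3, Mb, Pvalb, Tcap, Tnnc1, Tnnc2, Tnnt3, Tpm2 and Utrn). At an adjusted p under 0.05, 0 of 12 members were called between dystrophic-derived and WT-derived EVs, where 0.0145% of all genes tested were called. Between hypertrophic-derived and WT-derived EVs it was 0 of 12 against 0.0290%, and between hypertrophic-derived and dystrophic-derived EVs 0 of 12 against 0.0145%. At an unadjusted p under 0.05, members called in the same order were 0, 1 and 1, against 2.02%, 8.02% and 12.0% of all genes tested. Both times the member was Tcap, with an adjusted p from edgeR of 0.267 against WT and 0.123 against dystrophic, and all 6 hypertrophic-derived libraries were at 0 for it. With the conditions of the 6 libraries exchanged, dystrophic replicate 6 with its 1069 Tcap reads changes sides, and Tcap was under an unadjusted p of 0.05 in neither comparison, where edgeR gave 0 members and 1 member (Tnnc2).

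For Car3, Acta1 and Tpm2, the 3 most widespread members, the estimates against WT were smaller than or close to their standard errors. The log2 fold change of Car3 from edgeR was −1.08 (standard error 2.44) in dystrophic-derived and −1.34 (standard error 2.43) in hypertrophic-derived against WT-derived EVs. For Acta1 it was −2.66 (standard error 3.01, adjusted p = 0.842 from edgeR) and −3.46 (standard error 3.05, adjusted p = 0.620 from edgeR). For Tpm2 it was −0.13 (standard error 2.996) and −0.57 (standard error 2.95), and without WT replicate 2, the only WT-derived library with Tpm2 reads, both turned positive. With the number series of the sample titles in the model, the dystrophic against WT estimates of Car3, Acta1 and Tpm2 were 0.29, 0.44 and 0.73. Differences of several log2 units in either direction were thus within the error of these libraries, which does not show that the conditions were alike.

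A different tool called some members. With DESeq2, 3 of 12 members were called in dystrophic-derived against WT-derived EVs, where 19.1% of all genes tested were called, and 4 of 12 in hypertrophic-derived against WT-derived EVs, where 22.2% were called. Between hypertrophic-derived and dystrophic-derived EVs DESeq2 called 0 of 12 members, with 4.69% of all genes. Eno3, Tnnc1 and Utrn were higher than in WT in both comparisons, which share the WT libraries, and Tcap was lower in hypertrophic-derived EVs. Each of these calls set libraries with reads against a condition that was at 0 throughout: Eno3, Tnnc1 and Utrn had 0 reads in all 3 WT-derived libraries. For Tnnc1, the dystrophic side rested on 1 of 6 libraries, replicate 2. With 12 members tested, these shares were close enough to those of all genes to be no result about muscle genes as a set.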

How the data were processed

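Plasma EV RNA of 15 libraries (3 WT, 6 dystrophic, 6 hypertrophic, grouped by the sample labels) was sequenced by the authors after amplification, as single 50-base reads. Per the study's methods they were aligned with TopHat to mm10, and the submitters' processing notes also name HTSeq and DESeq. The authors deposited raw counts, whole numbers of reads per gene symbol without normalization. The annotation and the strand setting of the counting are not given in the sources used here. The labels name serum and a stranded mRNA kit, the methods plasma and a kit that does not mark strand. The 5 summary lines of each table, 57.9% to 99.2% of its numbers, name no gene and were left out. From these counts CPM over all gene symbols, 95% Wilson intervals and the limits of a 0 count (3 counts) were computed. The intervals cover counting error only.

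The members and all gene lists were chosen with earlier results of these data known. All members read in any library are named with their values, members at 0 are named, and of other lists up to 3 genes read in most libraries. Genes of other lists named at 0, and Tnni3, Cox6a2, Atp2a2 and Ckb, were chosen after their values were seen. Some genes of those lists are not reported here by name. All 40 members and 39544 of 43472 symbols matched GENCODE M21 by name, from which positions, exon lengths, sequences and shared 50-base windows were taken. Differences between conditions were tested with edgeR 4.0.16 (limma 3.58.1, R 4.3.3), with TMM, filterByExpr, 1 quasi-likelihood model of all 15 libraries without covariates and Benjamini-Hochberg adjustment over all genes tested. Standard errors were derived from the F statistic. The procedure was tested on simulated data. Alternatives were DESeq2 1.42.0, no TMM, no filter, minimums of 5 and 10 reads, the smallest depth, CPM without mitochondrial and hemoglobin genes, members mainly of skeletal muscle, exchanged conditions of the 6 libraries with crossed numbers, the 9 libraries with matching numbers, a covariate for the number series in the titles, and leaving out each library in turn. A minimum above 3 reads and only libraries of at least 1000000 reads were chosen after seeing the data. Nothing says that libraries came from separate cohorts, so p-values measure the spread between these pools of 2 to 3 mice.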

Additional observations from a re-analysis of the deposited data

Results flagged for a closer look

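Each member read in a condition of 6 libraries was examined there, together with the number and the summed level of the members, and 37 of these 53 groups had 1 library far from the rest of its condition (16 dystrophic, 21 hypertrophic), by a limit that chance passes in about 1 in 20 groups of continuous values. In 29 of them all other libraries of the condition were equal, at 0, so these results only restate that a member was read in 1 library, and the chance rate does not apply to them. The WT condition, with 3 libraries, was too small for this comparison. All values here are CPM, and no explanation was tested.

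Hypertrophic replicate 2 was the outlying library for 11 genes, with Eno3 at 125, Acta1 at 74.6, Myh7 at 74.3, Ckm at 70.7, Tnnc1 at 70.2, Mb at 53.3, Myh1 at 39.99, Atp2a1 at 30.7, Dag1 at 18.6, Myl1 at 11.4 and Ryr1 at 9.999. Dystrophic replicate 5 was outlying for 8, with Pvalb at 35.6, Atp2a1 at 35.0, Mylpf at 27.3, Tnnc2 at 27.3, Myh2 at 19.4, Tnni2 at 11.1, and Ttn and Tnni1 at 5.19 each. Both are the libraries of their condition with the most members read, and both have crossed numbers.

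The highest values were in hypertrophic replicate 4, with Sgca at 792 and Utrn at 621, beside Ttn and Mybpc1 at 2.22 each, which is 1 read. Hypertrophic replicate 3 had Sgcb at 365 and Neb at 0.525, again 1 read. Hypertrophic replicate 1 had Dmd at 214, Mylpf at 103 and Tnnt1 at 65.6, and hypertrophic replicate 6 had Tnnc2 at 94.2.

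In the other dystrophic-derived libraries, replicate 2 had Eno3 at 205, Tnnc1 at 183 and Dag1 at 81.5, replicate 1 had Ckm and Pygm at 33.3 each and Tnnt3 at 18.8, and replicate 6 had Mybpc2 at 49.3 and Ryr1 at 6.23. Car3 and Tpm2 were outlying in no library.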

How the results depend on the processing

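Of 403 alternative values for 22 results, 357 counted as the same. For fold changes this meant the same direction and side of the threshold. For counts it meant a ratio to the main value within a set limit, and for summed levels a shift below the SD between libraries. Large shifts could thus count as the same, such as a dystrophic summed level of 392 CPM against 60.4 for members mainly of skeletal muscle. No paired analysis was possible because the replicate numbers only name libraries. The cause of a shift was not tested unless given.

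Members read in dystrophic-derived libraries were 15.3 at the smallest depth and 12 in the 9 libraries with matching numbers, where hypertrophic-derived libraries held 13, with fewer libraries in both. Without 1 library at a time the counts were 30 to 33 in all libraries, 6 to 15 in WT, 15 to 23 in dystrophic and 18 to 26 in hypertrophic. The median summed level of members mainly of skeletal muscle was 206 CPM in WT, 60.4 in dystrophic and 192 in hypertrophic, and without 1 library the medians ran from 461 to 1159.5 CPM in WT, 382 to 403 in dystrophic and 366 to 737 in hypertrophic.

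Genes called for dystrophic against WT, hypertrophic against WT and hypertrophic against dystrophic, 1, 2 and 1 with edgeR, were 1315, 1528 and 323 with DESeq2, which called 3, 4 and 0 members. Without a filter edgeR called 0 in each, with 580, 1120 and 4382 genes at an unadjusted p under 0.05. Dystrophic against WT gave 3 without TMM, 2 with exchanged conditions and 3 in the 9 libraries. Hypertrophic against dystrophic gave 0 with exchanged conditions (344 at an unadjusted p under 0.05) and 0 in the 9 libraries (155). Without 1 library the counts were 1 to 2, 1 to 3 and 0 to 2, and edgeR called 0 members each time.

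The log2 fold changes of dystrophic against WT turned positive with the title series as a covariate for Acta1 (0.44), Tpm2 (0.73) and Car3 (0.29), and for Tpm2 also with DESeq2 (0.055), without TMM (0.0055) and with exchanged conditions (0.054). In the same order of comparisons and without 1 library, Acta1 ran from −3.24 to −2.17, −12.21 to −2.98 and −9.71 to −0.47. Tpm2 ran from −0.70 to 10.95, −1.44 to 10.60 and −1.22 to −0.18, strongly positive without WT replicate 2, which left WT at 0, and 0.13 in the first comparison without dystrophic replicate 3 or 4. Car3 ran from −1.77 to −0.04, −2.36 to −0.25 and −1.37 to 0.50, the last without dystrophic replicate 2. No adjusted p of these 3 genes passed the threshold under any alternative.

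Depth limited the WT condition most, where a count of 0 in replicate 1 allows 110 CPM.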

Other observations

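Liver is another tissue whose RNA can reach plasma. All 7 liver genes were read somewhere, in 25.7% of pairs. Their sums were highest in hypertrophic replicate 5 (2181 CPM, 3 genes), where the muscle set had 1 read, and in hypertrophic replicate 6 (1142 CPM, 7 genes), where 8 muscle genes were read. In hypertrophic replicate 2, which held the most muscle genes, 6 liver genes summed to 562 CPM. Dystrophic replicate 4, without a muscle member, also held no liver, heart or smooth muscle gene of these lists, while 5 of 7 white cell genes were read there at 3498 CPM in sum. Cox6a2, a muscle subunit of cytochrome oxidase from the list of further fibre genes, was chosen after its values were seen: it was read in that library only, with 365 reads, or 227 CPM. Tetraspanin genes that mark EVs (Cd9, Cd63 and Cd81) were read in 80.0% of pairs and in every library at least in part.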
